A study of Mus musculus with 4 samples.

Results

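The genes described here are 10 regulators of the G1 phase of the cell cycle, taken as a fixed list from the 21887 protein-coding genes of the mouse RefSeq table. Of these, 5 were grouped as drivers of G1 entry (Ccnd1, Ccnd2, Ccnd3, Cdk4 and Cdk6) and 5 as inhibitors that hold cells in quiescence (Cdkn1a, Cdkn1b, Cdkn1c, Cdkn2c and Rb1). For each gene, every summit of open chromatin in the gene body or within 10000 bp on either side was collected, an area called the gene window below. The members were listed by name, without a threshold on any measured value.

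The study compared haematopoietic stem cells (HSCs) of mouse bone marrow that carried the receptor CD93 on their surface with those that did not, by ATAC-seq, in which the transposase Tn5 inserts into open chromatin. All cells came from wild-type C57BL/6 male mice aged 8 weeks and from 1 sort gate: LSK, meaning lineage-negative, Sca-1-positive and Kit-positive, with CD34, CD48 and Flt3 absent and Slam1 present. Each group, CD93-positive and CD93-negative, had 2 libraries. The labels do not say whether the libraries came from separate mice, so the spread between them may be technical, and bones were pooled before sorting.

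In the G1 phase, D-type cyclins bind the kinases Cdk4 and Cdk6, and the complex phosphorylates the retinoblastoma protein, which then releases E2F transcription factors. Inhibitors of the Ink4 family, such as the product of Cdkn2c, bind Cdk4 and Cdk6, while those of the Cip/Kip family (Cdkn1a, Cdkn1b and Cdkn1c) bind complexes of cyclins and kinases. Adult HSCs are mostly quiescent, and p57 (Cdkn1c), p27 (Cdkn1b) and p18 (Cdkn2c) are known for their part in HSC quiescence or self-renewal.

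The 2 CD93-positive lists held 21 summits (replicate 1) and 711 (replicate 2), and the 2 CD93-negative lists 7989 (replicate 1) and 2755 (replicate 2). Read depth is unknown, so an absent summit means that none was listed, not that the site was closed. In a bulk library, a site open in fewer cells and a site less open in every cell cannot be told apart. The score of a summit is a −log10 p or q value set against its own library, and it is given here with its rank in that list and its percentile, the share of the list at or below that score. Among 34 marker genes, a gene-window summit was listed at 0 in either CD93-positive library, at 8 in CD93-negative replicate 1 and at 1 in replicate 2. In replicate 1 these were 1 of 7 sort-gate genes (Flt3), 2 of 7 HSC genes, 3 of 6 myeloid genes (S100a8, S100a9 and Ngp), 2 of 5 erythroid and megakaryocyte genes, 0 of 5 lymphoid and 0 of 4 endothelial genes. In replicate 2 the single gene was S100a8. The part of other cell types in the results below was not tested.

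Promoter sequences show what the listed sites cover. RefSeq promoter entries (GRCm38.p6) were found for 6 of the 10 genes, with 9 transcription starts in all. Ccnd1, Ccnd2, Cdkn1c and Rb1 had no entry. The 250 bases upstream of 4 starts are shown because each held a summit, and those of the upstream Cdkn1a start because it held none and is poor in CpG. They run 5′ to 3′ on the strand of the gene. Capitals mark matches, on either strand, to the GC box GGGCGG, the CCAAT box CCAAT and the E-box CACGTG.
Cdk4, chr10:127063285-127063534, plus strand: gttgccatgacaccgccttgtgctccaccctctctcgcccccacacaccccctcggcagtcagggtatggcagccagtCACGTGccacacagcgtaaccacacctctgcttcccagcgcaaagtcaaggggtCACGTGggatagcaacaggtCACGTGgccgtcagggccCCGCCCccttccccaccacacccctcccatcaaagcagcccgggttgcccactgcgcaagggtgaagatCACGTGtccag
Ccnd3 inner start, chr17:47593217-47593466, plus strand: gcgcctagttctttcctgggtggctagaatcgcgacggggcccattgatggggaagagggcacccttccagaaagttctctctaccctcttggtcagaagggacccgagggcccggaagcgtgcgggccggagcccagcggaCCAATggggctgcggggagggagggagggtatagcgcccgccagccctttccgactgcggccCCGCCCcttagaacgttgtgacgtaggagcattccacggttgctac
Cdkn1b, chr6:134920151-134920400, plus strand: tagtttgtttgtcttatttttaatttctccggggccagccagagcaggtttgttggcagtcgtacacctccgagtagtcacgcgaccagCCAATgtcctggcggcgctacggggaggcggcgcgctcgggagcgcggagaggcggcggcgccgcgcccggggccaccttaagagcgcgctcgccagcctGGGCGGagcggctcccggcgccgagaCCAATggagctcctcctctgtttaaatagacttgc
Cdkn2c upstream start, chr4:109666757-109667006, minus strand: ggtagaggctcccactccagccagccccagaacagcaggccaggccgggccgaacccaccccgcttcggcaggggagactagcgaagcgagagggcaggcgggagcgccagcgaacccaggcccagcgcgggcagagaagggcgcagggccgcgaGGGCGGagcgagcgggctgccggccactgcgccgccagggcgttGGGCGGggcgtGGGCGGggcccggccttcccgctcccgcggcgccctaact
Cdkn1a upstream start, chr17:29090729-29090978, plus strand: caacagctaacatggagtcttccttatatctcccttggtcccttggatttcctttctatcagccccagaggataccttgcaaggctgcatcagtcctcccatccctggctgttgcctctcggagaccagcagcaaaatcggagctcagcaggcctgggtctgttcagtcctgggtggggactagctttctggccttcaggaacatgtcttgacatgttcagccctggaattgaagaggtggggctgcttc

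Each G1 regulator with a listed window summit had one in a CD93-negative library, where more of all genes had one as well. Of the 10 genes, 7 had a summit in the window in CD93-negative replicate 1 and 4 in CD93-negative replicate 2. The CD93-positive lists had 0 (replicate 1) and 1 (replicate 2). Over all protein-coding genes the share with a summit in the window was 0.0411% and 4.62% in the CD93-positive libraries, and 43.5% and 18.5% in the CD93-negative libraries. Both CD93-negative counts were above both CD93-positive ones, with means of 5.5 ± 2.12 (SD, n = 2) and 0.5 ± 0.707 (SD, n = 2). The difference of 5 genes gave an exact permutation p of 0.333 (two-sided), the smallest that 2 libraries against 2 allow. Lists were then limited to at most their 711 highest-scoring summits, which left CD93-positive replicate 1 at 21. Members with a summit numbered 0 and 1 (Cdkn2c) in CD93-positive replicates 1 and 2. In CD93-negative replicates 1 and 2 they numbered 1 (Cdk4) and 0. The difference of means was 0, with the list of 21 included. In the same order, 0.0411%, 4.62%, 4.79% and 5.05% of all genes had a window summit.

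**Figure D1:**
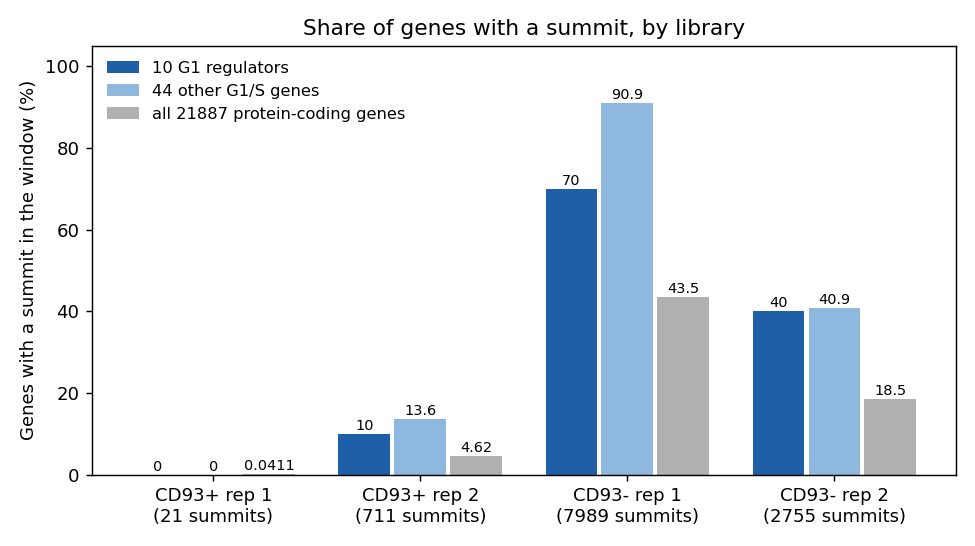
Bars show the percentage of genes with at least 1 summit in the gene body or within 10000 bp, in each of the 4 libraries, for the 10 G1 regulators, 44 other G1/S genes and all protein-coding genes. All 3 shares are highest in CD93-negative replicate 1, whose list of 7989 summits is the longest. The members' shares stand above those of all genes in CD93-negative replicates 1 and 2 (70% and 40% against 43.5% and 18.5%). The same holds in CD93-positive replicate 2 (10% against 4.62%), while in CD93-positive replicate 1 they are 0% and 0.0411%. The difference between members and all genes was not tested.

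The members fell into 4 patterns. Ccnd3, Cdk4 and Cdkn1b had a summit in both CD93-negative libraries and in neither CD93-positive one, a pattern held by 14.2% of all genes. Cdkn2c had a summit in CD93-positive replicate 2 and both CD93-negative libraries, as did 4.12% of all genes. Cdk6, Cdkn1a and Rb1 were listed in CD93-negative replicate 1 alone, and Ccnd1, Ccnd2 and Cdkn1c in no library. The shares of all genes with these other patterns were not counted. A window summit was listed at 43.5% of all genes in CD93-negative replicate 1 and at 18.5% in replicate 2, so most genes had none in either list.

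Both drivers and inhibitors had listed sites. Of 5 drivers, 0 had a summit in either CD93-positive library, 3 had one in CD93-negative replicate 1 and 2 in CD93-negative replicate 2. Of 5 inhibitors, CD93-positive replicate 1 covered 0, CD93-positive replicate 2 covered 1, CD93-negative replicate 1 covered 4 and CD93-negative replicate 2 covered 2. The driver count minus the inhibitor count was thus 0 and -1 in the CD93-positive libraries and -1 and 0 in the CD93-negative ones, with a mean of -0.5 in each group (difference 0, exact permutation p = 1, two-sided). With 2 libraries against 2 the smallest possible p is 0.333, so this test could not detect a shift of any size between the classes.

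Among the drivers, Cdk4, the kinase partner of D-type cyclins, had the highest-ranked summit of any member. CD93-negative replicate 1 listed it at chr10:127063473 with a score of 56.7 (rank 677 of 7989, percentile 91.5), and replicate 2 at chr10:127063450 with a score of 12.4 (rank 857 of 2755, percentile 68.9). These lay 62 and 85 bp upstream of the listed start, inside the first promoter sequence above. CD93-positive replicate 2 listed nothing closer to the gene than 1629 kb, beside Rab5b, and CD93-positive replicate 1 had no summit on chromosome 10. The Cdk4 site belongs to the top score decile of the CD93-negative replicate 1 list. Of the 794 sites of that decile on the assembled chromosomes, 86% had a summit within 250 bp in CD93-negative replicate 2 and 48.5% in CD93-positive replicate 2.

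The Cdk4 promoter carries 4 E-boxes, the letters bound by MYC and related factors, and 3 GC boxes in the 300 bases from 250 before the start to 50 after it. An E-box was present in 7.15% of the 32851 promoters of the same length, and 4 or more in 8 of them (0.0244%). Among promoters with a CD93-negative replicate 1 summit, such as this one, 12.6% had an E-box. Counting the start as 0, the E-boxes begin 172, 118, 98 and 11 bases upstream. The CD93-negative replicate 2 summit lay 5 bases from a GC box and that of replicate 1 lay 13 bases from the same box.

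Ccnd3, which encodes cyclin D3, had 5 window summits, all in CD93-negative HSCs. CD93-negative replicate 1 listed 4 in its window, of which 3 were inside the gene. The inner one at chr17:47593426 (score 33.0, rank 2244, percentile 71.9) lay 41 bp upstream of the second listed start, at the edge of a GC box, in the second sequence above. Another at chr17:47511311 had the highest score of the gene (36.7, rank 1882, percentile 76.5) and lay 6260 bp inside the 5′ end, and a weak one at chr17:47521738 (7.23, rank 7272, percentile 8.99) lay 16687 bp inside. None of these 3 had a counterpart in another library.

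The remaining Ccnd3 window site was nearer to a neighbour. It lay inside Taf8, a gene for a TFIID subunit, 75 bp from its end in CD93-negative replicate 1 (chr17:47502246, score 25.1, rank 3244) and 241 bp from it in replicate 2 (chr17:47502080, score 10.2, rank 1280). It was 2805 and 2971 bp upstream of the first Ccnd3 start, where no summit was listed within 500 bp. The call of Ccnd3 in CD93-negative replicate 2 thus rests on the Taf8 site.

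Cdk6, the other kinase partner of D-type cyclins, had a single weak summit. It was listed in CD93-negative replicate 1 at chr5:3344593 with a score of 6.57 (rank 7466 of 7989, percentile 6.56), 700 bp downstream of the listed start. No summit was listed in its window in CD93-negative replicate 2, and in CD93-positive replicate 2 the nearest one was 574 kb away.

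Cyclins D1 and D2 had no summit in their windows in any library. The nearest site to Ccnd1 was 14872 bp outside the gene in CD93-negative replicate 1 and 14905 bp in replicate 2, at 41 and 74 bp from the neighbouring gene LTO1 (scores 20.2 and 6.08). The summit nearest to Ccnd2 in CD93-negative replicate 1 (score 16.9) was 15500 bp outside the gene, 110 bp from Tigar, a p53-regulated phosphatase gene, and 1273 kb away in replicate 2. In CD93-positive replicate 2 the nearest summits were 5541 and 4816 kb from Ccnd1 and Ccnd2.

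**Figure D2:**
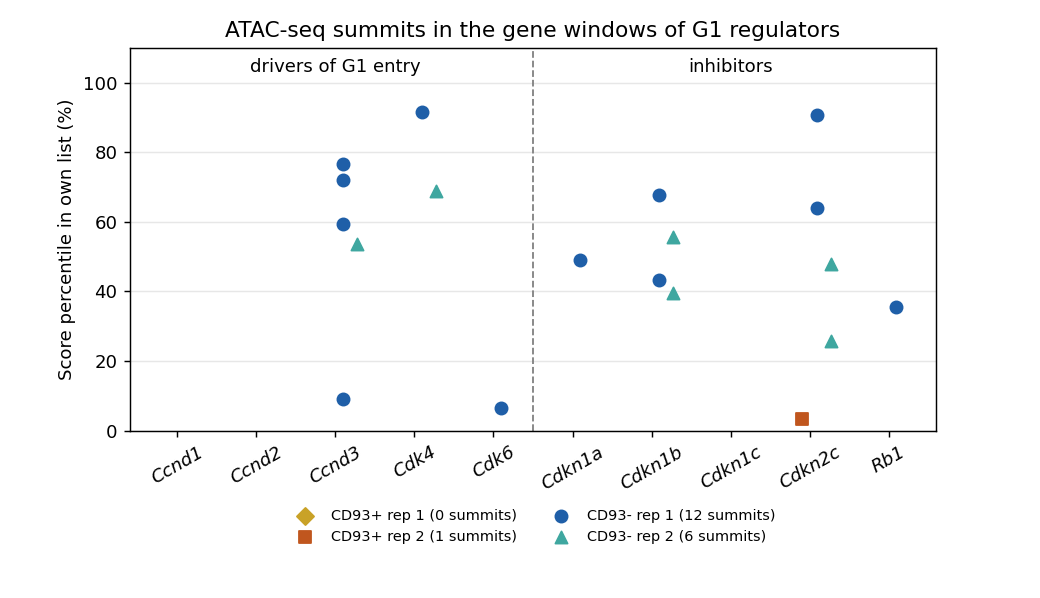
Each point is 1 summit in a member's window, placed by its score percentile within its own list (vertical axis, %), with drivers left and inhibitors right of the dashed line. The Cdk4 and Cdkn2c windows hold the highest points of CD93-negative replicate 1 (91.5 and 90.7), the only CD93-positive point is Cdkn2c at 3.38, and Ccnd1, Ccnd2 and Cdkn1c have no point.

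Among the inhibitors, Cdkn2c, the gene of p18, was the single member with a summit in a CD93-positive library. CD93-positive replicate 2 listed it at chr4:109666963 with a score of 3.69 (rank 688 of 711, percentile 3.38), near the bottom of its list. CD93-negative replicate 1 listed chr4:109666858 (score 27.7, rank 2879 of 7989, percentile 64.0) and replicate 2 chr4:109666969 (score 7.15, rank 2052 of 2755, percentile 25.6). These summits lay 207, 102 and 213 bp upstream of the listed start, all within the fourth sequence above, and the CD93-positive one was 6 bp from that of CD93-negative replicate 2. With a score minimum of 5 this CD93-positive call was lost. The site is in the fourth decile of CD93-negative replicate 1, where 3.75% of 799 sites had a CD93-positive replicate 2 summit within 250 bp.

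A second site in the Cdkn2c window belonged to Faf1, which encodes a FAS-associated factor. It outranked the Cdkn2c start site in each CD93-negative list. The scores were 54.9 (rank 747) at chr4:109676642 in replicate 1 and 9.53 (rank 1438) at chr4:109676566 in replicate 2, 15 and 61 bp from the end of Faf1. It was the site closest to the window limit, at 9886 and 9810 bp from Cdkn2c. It was absent from both CD93-positive lists. Genes were matched to Cdkn2c by the mean absolute difference of the best window percentile over the 3 lists longer than 100 summits. In CD93-negative replicates 1 and 2 that percentile was of the Faf1 site (90.7 and 47.8), not of the Cdkn2c start site (64.0 and 25.6). The most alike were Faf1 (0, since it shares the same summits), Arhgap17 and Lcmt1 (both 1.19 percentile points, with no CD93-positive summit). Arhgap17 and Lcmt1 thus match the Faf1 site rather than the Cdkn2c start.

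The p27 gene Cdkn1b had the same pair of sites in both CD93-negative libraries. At the start, the summits were chr6:134920337 in replicate 1 (score 30.3, rank 2575, percentile 67.8) and chr6:134920372 in replicate 2 (score 10.5, rank 1226, percentile 55.5), 64 and 29 bp upstream. A GC box lay 3 bases from the first and a CCAAT box 2 bases from the second. Beyond the 3′ end, 3265 and 3151 bp outside the gene, replicate 1 listed chr6:134928790 (17.9, rank 4519, percentile 43.4) and replicate 2 chr6:134928676 (8.61, rank 1669, percentile 39.5). No other protein-coding gene end was nearer to that site. The closest CD93-positive replicate 2 summit was 90.3 kb away, beside Crebl2.

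The promoter of Cdkn1b held 3 CCAAT boxes and 1 GC box in the same 300 bases, against at least 1 CCAAT box in 37.4% and at least 1 GC box in 35.7% of all promoters. CCAAT is the core letters bound by NF-Y, and GC boxes are bound by SP and KLF factors. Among promoters with a CD93-negative replicate 1 summit, the shares were 45.5% and 78.0%.

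Cdkn1a and Rb1 were listed in CD93-negative replicate 1 alone. At Cdkn1a, the gene of the p53 target p21, the summit at chr17:29095580 (score 20.1, rank 4083, percentile 48.9) lay inside the gene, 1811 bp downstream of the second listed start. Neither listed start had a summit within 500 bp. At Rb1, which encodes the retinoblastoma protein, the summit at chr14:73325792 (score 15.3, rank 5163, percentile 35.4) lay 159 bp inside 1 end of the gene. The RefSeq tables used here give no strand for Rb1. In CD93-negative replicate 2 the nearest summits were 58.4 kb from Cdkn1a, beside Srsf3, and 59.4 kb from Rb1, beside Itm2b. Cdkn1c, the imprinted gene of p57, had no summit closer than 88124 bp (replicate 1) and 88117 bp (replicate 2), beside Nap1l4.

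**Figure D3:**
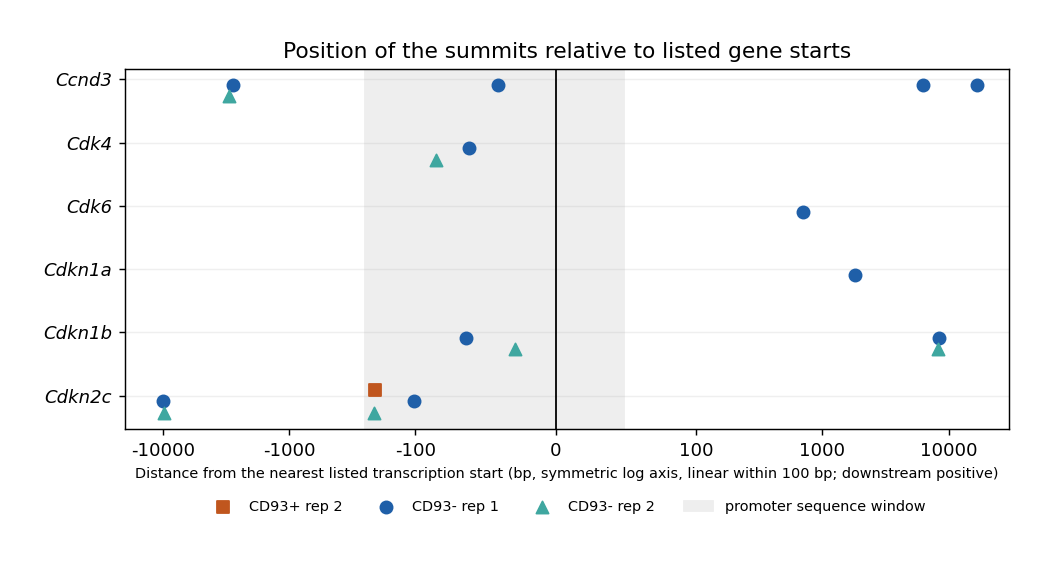
Points show the distance of each summit from the nearest listed transcription start of 6 members (bp, symmetric log axis, upstream negative), by library, with the 300-base promoter window shaded. Sites of Cdk4, Cdkn1b and Cdkn2c fall in the shaded window in both CD93-negative libraries, that of Ccnd3 in replicate 1 alone, while Cdk6 and Cdkn1a have their single site downstream.

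Among the CD93-negative libraries, replicate 1 had 12 summits in the member windows and replicate 2 had 6 (0.15% and 0.218% of their lists), against 0 and 1 in the CD93-positive libraries (difference of means 8.5, exact permutation p = 0.333, two-sided). Of the 12, 6 had a replicate 2 summit within 250 bp. The count was 5 of 6 for sites within 1000 bp of any gene end and 1 of 6 for the others, the latter being the site downstream of Cdkn1b. A gene end here is either outer limit of a RefSeq gene, so this is not a split into promoter and other sites. The others that did not recur include the Ccnd3 site 41 bp from its inner start and the Cdk6 site 700 bp from its listed start. The gene-end sites include those of Taf8 and Faf1. Over all 7978 replicate 1 summits on the assembled chromosomes, 32% recurred, with 35.7% of gene-end sites and 20.5% of the others. By role, 2 of 6 sites in driver windows and 4 of 6 in inhibitor windows recurred. The former include the Taf8 site and the latter the Faf1 site, each nearer to that neighbour than to the member. These splits are counts from single windows, were made after the sites were seen and carry no test.

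Rank alone did not order which sites recurred. The Ccnd3 sites at ranks 1882 and 2244 in CD93-negative replicate 1 were not in replicate 2, whereas the weaker Cdkn1b downstream site at rank 4519 was. In the third decile, which holds both Ccnd3 sites, 46.2% of 800 sites recurred, and in the sixth decile, which holds the Cdkn1b site, 22% of 801. The 2 member sites of the tenth decile, in Ccnd3 and Cdk6, did not recur, as was so for all but 2.63% of 797 sites there.

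**Figure D4:**
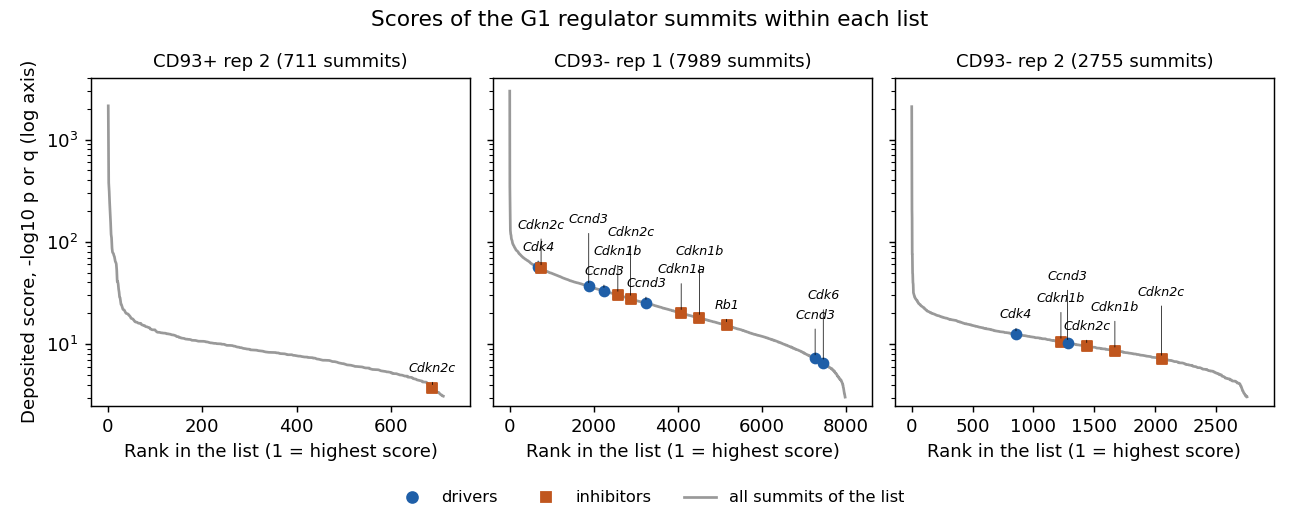
Grey lines give the deposited score (log axis) against rank for all summits of 3 lists, and points mark summits in driver (circles) and inhibitor (squares) windows. Member sites span ranks 677 to 7466 of 7989 in CD93-negative replicate 1 and 857 to 2052 of 2755 in replicate 2, and the Cdkn2c site lies at rank 688 of 711 in CD93-positive replicate 2.

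Counting only summits within 1000 bp of a gene end, the members with a site numbered 0 and 1 in the CD93-positive libraries (0.0183% and 3.22% of all genes) and 4 and 3 in the CD93-negative libraries (32.2% and 12.9% of all genes). The genes were Cdkn2c in CD93-positive replicate 2, Cdk4, Cdkn1b, Cdkn2c and Rb1 in CD93-negative replicate 1, and the first 3 of those in replicate 2. The difference of means was 3 genes (3.5 ± 0.707 against 0.5 ± 0.707, SD, n = 2 each, exact permutation p = 0.333, two-sided). Cdk4 and Cdkn1b were the 2 members with such a site in both CD93-negative and no CD93-positive library, a pattern of 9.95% of all genes.

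The CpG content of member starts with and without a listed site overlapped. In CD93-negative replicate 1, 4 of the 9 listed starts had a summit within 500 bp and 5 did not. The observed-to-expected CpG ratio of the 300-base windows was 0.849 (Ccnd3 inner start), 0.702 (Cdk4), 1.04 (Cdkn1b) and 0.823 (Cdkn2c upstream start) at the first 4. At the others it was 0.577 (Ccnd3 outer start), 0.851 (Cdk6), 0.0892 and 0.786 (Cdkn1a upstream and inner starts) and 0.553 (Cdkn2c inner start). Over all promoters, the median ratio was 0.858 for the 5589 with a CD93-negative replicate 1 summit in the window and 0.298 for the 27262 without. The E2F letters TTTCCCGC, TTTGGCGC and TTTGGCGG, the ETS letters CCGGAAGT, the AP-1 letters TGACTCA, the GATA letters AGATAA and the CRE letters TGACGTCA were in none of the 9 member windows. They were in 1.07%, 0.514%, 0.560%, 3.89%, 5.20%, 11.2% and 1.79% of all promoters.

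Most genes of a wider G1/S list, chosen with earlier results of these data known, had a listed site in CD93-negative replicate 1. Of 44 other G1/S genes, 40 had a summit in the window there and 18 in CD93-negative replicate 2, against 0 and 6 in CD93-positive replicates 1 and 2. The shares of all protein-coding genes, in the same order, were 43.5%, 18.5%, 0.0411% and 4.62%. In CD93-negative replicate 1 this included all 10 E2F and DP genes, all 7 pocket protein and DREAM genes, all 3 other inhibitors, all 6 turnover genes, 8 of 9 genes of cyclins E and A and their partners and 6 of 9 upstream regulators. In CD93-positive replicate 2 there were 0 of 10, 2 of 7, 0 of 3, 1 of 6, 2 of 9 and 1 of 9. The 2 of the cyclin list were Ccna2 and, through the site beside Rab5b named above, Cdk2. With 4.62% of all genes covered in that library, a count of 0 among 10 genes is near the background. The difference between members and this list was not tested.

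Gene-end sites of the cyclin E and E2F genes were listed in CD93-negative libraries and in no CD93-positive one. Few genes of any kind had such a site in a CD93-positive list, with shares of 0.0183% (replicate 1) and 3.22% (replicate 2). The CD93-negative shares of all genes were 32.2% (replicate 1) and 12.9% (replicate 2). For so few genes, absence from the CD93-positive lists is thus near the background. Ccne1 had a gene-end site in both CD93-negative libraries (ranks 1536 and 1325) and Ccne2 in replicate 1 (rank 4228). Cdk2, their kinase partner, had one in replicate 1 (rank 1815). E2f3 ranked 540 and 359, E2f8 840 and 783 and E2f5 3402 and 2392 in CD93-negative replicates 1 and 2, and E2f1, E2f6 and E2f7 were in replicate 1 alone (ranks 1503, 6193 and 2277). E2f2 and E2f4 had a window summit but no gene-end site. The pocket protein genes Rbl1 and Rbl2, relatives of Rb1, ranked 6663 and 6209 in CD93-negative replicate 1 and were absent elsewhere, as Rb1 was.

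Ink4 family genes other than Cdkn2c differed among themselves. Cdkn2d, the gene of p19, ranked 273 in CD93-negative replicate 1 (score 73.1) and 189 in replicate 2 (score 19.6) and was in no CD93-positive list. Cdkn2b ranked 6736 and Cdkn2a 7986 of 7989 in CD93-negative replicate 1, and neither was listed elsewhere. Cdc25a, a phosphatase that activates Cdk2, ranked 2143 and 1690 in the CD93-negative libraries, and Cks1b, a kinase-binding subunit, 2097 and 1084.

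In CD93-positive replicate 2, gene-end sites of the pathway were at Rbbp4 (rank 88 of 711), Gsk3b (rank 123), Fzr1 (rank 318), Ccna2 (rank 334) and Lin52 (rank 456). Rbbp4 encodes a histone-binding subunit that the DREAM complex shares with other complexes, Lin52 a DREAM subunit, Gsk3b a kinase that phosphorylates D-type cyclins for degradation, Fzr1 the G1 co-activator of the anaphase-promoting complex, and Ccna2 cyclin A2. Over all genes, 3.22% had a gene-end summit in that library. All 5 were also listed in both CD93-negative libraries, as most genes of that list were. By window summits, 1011 of all genes were listed in CD93-positive replicate 2. Of those, 902 were also listed in both CD93-negative libraries. There Fzr1 ranked 15 and 82, Rbbp4 20 and 95, Gsk3b 654 and 174, Lin52 1051 and 406 and Ccna2 836 and 2202. Ccna2 was named after its values were seen, to complete the count. The Cdkn2c site, at rank 688, stood below all 5 in the CD93-positive list. Among the other pathway genes with a gene-end site in both CD93-negative libraries alone, Fbxw7, a ubiquitin ligase subunit that targets cyclin E, ranked 120 and 720 and Hexim1, an inhibitor of P-TEFb, 315 and 458. Myc, Hes1, Gfi1 and Mnat1 had no window summit in any library. These 4 genes, like Cdkn2a and Cdkn2b, were named after their values were seen.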

How the data were processed

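ATAC-seq summits were analysed in 2 CD93-positive and 2 CD93-negative libraries of sorted mouse HSCs, grouped by sample title. Each deposited file lists the 1-bp summits of 1 library, and its deposited score was read as a −log10 p-value or q-value in the usual MACS2 layout. Per the submitters' processing notes, Bowtie2, MACS2 and mm10 were used. Not given in the sources used here are versions, read filters, any Tn5 shift and the calling threshold. The numbers inside the summit names (2 and 3, then 1 and 3) differ from the title numbers, which were followed.

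Python 3.11.15, numpy 2.4.6, pandas 2.3.3 and matplotlib 3.10.9 were used. Genes were protein-coding RefSeq genes (GRCm38.p6, the assembly behind mm10, matched by symbol, 10 of 10 members) on the autosomes, X and Y. Positions are 1-based. Starts and strand came from the RefSeq promoter entries. Summits within 250 bp were called shared. Groups were compared by exact permutation tests over libraries, and all other counts are descriptions. Window functions were tested on simulated data. Alternatives were other windows, score minimums, lists of at most 711 summits, nearest-gene assignment, merging, sharing distances, leaving out each library and a replicate block.

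The members and gene lists were chosen with earlier results of these data known. The text names all members, the pathway genes of the cyclin E, Cdk2, E2F and pocket protein families, and up to 12 others with gene-end sites in a CD93-positive or both CD93-negative libraries, ranked by the lower percentile. It also names neighbours that own a window summit and the 3 genes most like a member listed in 3 or more libraries.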

Additional observations from a re-analysis of the deposited data

How the results depend on the processing

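The mean number of members with a summit was higher in CD93-negative HSCs under 12 alternatives. With lists of at most 711 summits (called equal lists below), the differences of members, summits and members with a gene-end site were 0 each. CD93-positive replicate 1 kept its 21 summits there, so only the other lists were of equal length. That setting uses fewer summits of the CD93-negative lists. With the gene body alone the difference fell from 5 to 2 members and from 8.5 to 3 summits. It then came from CD93-negative replicate 1 alone (4 members, 6 summits). CD93-negative replicate 2 had 0 of either, as both CD93-positive libraries did. With 2500 bp the difference was 4.5 members and 5.5 summits, and with 50000 bp 6.5 members and 14 summits, which adds the LTO1 and Tigar sites. Leaving out 1 library gave 3.5 to 6.5 members, 5.5 to 11.5 summits (5.5 without CD93-negative replicate 1) and 2.5 to 3.5 members with a gene-end site.

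The driver minus inhibitor difference between the groups, 0 in the analysis reported, was -0.5 with 2500 bp, with scores of at least 5 or 10 and with nearest-gene assignment, 1 with equal lists and 1.5 with 50000 bp. It ran from -0.5 to 0.5 when 1 library was left out. The 50000 bp window added the driver Ccnd1 in both CD93-negative libraries, through the LTO1 site, and no inhibitor. It also added the driver Ccnd2 in CD93-negative replicate 1, through the Tigar site. The cause of the other shifts was not tested. The count of members shared between the groups, 1 (Cdkn2c), became 0 with the gene body alone, with scores of at least 5 or 10, and with equal lists, and ran from 0 (without CD93-positive replicate 2) to 1 when 1 library was left out.

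With the replicate block, the differences of 5 members, 8.5 summits, 0 for drivers minus inhibitors and 3 gene-end members were the same, with an exact p of 0.5 for the first, second and last and 1 for the third. Same-numbered libraries deviated together weakly (r = 0.0709 over 21887 genes), and the labels do not say that the numbers pair them. No p could fall below 0.333 in the test over libraries, so these tests say nothing about stability. List length, the only measure of yield here, limits every count.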
